A study of Homo sapiens with 4 samples.

Results

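The miRNAs recovered with the ODD probe set against circHIPK3 were compared with those recovered by control probes in a native RNA pull-down from RD cells. RD is an established line from a human embryonal rhabdomyosarcoma, a childhood tumour that expresses muscle genes. The members are the mature miRNAs with at least 20 reads in the ODD library, the LacZ library or both, which gave 300 of the 2656 mature miRNAs listed. These 300 took 99.8% of the ODD reads and 99.6% of the LacZ reads. The ODD library came from lysate incubated with 1 of 2 biotinylated antisense probe sets directed at exon 2 of HIPK3, the exon that forms circHIPK3. The LacZ library came from the same procedure with biotinylated probes against a bacterial mRNA that these cells lack. A second probe set against the same exon (EVEN) and the unselected lysate RNA (input) gave 1 library each and serve only as further reference values. No treatment was applied to the cells in any group, and the labels name no difference between the groups other than the probes. There was 1 biological replicate, so no difference below has a replicate check and no test was made.

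A miRNA is cut from a hairpin as a duplex of a 5p and a 3p arm, and usually 1 arm is kept in Argonaute as the guide strand while the other, the passenger strand, is degraded. The guide finds target RNAs mainly by pairing through its seed, bases 2 to 8. miRNAs with the same seed form a family with overlapping targets, and many are transcribed together as clusters. Circular RNAs are covalently closed transcripts, and circHIPK3 has been described as a binder of several miRNAs. A native pull-down can recover a miRNA that sits on the captured RNA through Argonaute, and it can also recover what binds probes or beads by other routes, which is what the LacZ library measures.

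The following sequences are the ones on which the results turn, taken from RefSeq (GRCh38.p14) and written 5′ to 3′ with the seed in capitals. The first set is shown because its members share the letters AGCAG near the 5′ end or, in miR-24-3p, further in, and were mostly higher with ODD probes.
miR-16-5p: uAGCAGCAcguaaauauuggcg
miR-15b-5p: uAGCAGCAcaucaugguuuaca
miR-15a-5p: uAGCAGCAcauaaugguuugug
miR-424-5p: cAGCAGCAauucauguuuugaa
miR-503-5p: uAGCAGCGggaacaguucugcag
miR-107: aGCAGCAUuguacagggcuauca
miR-103a-3p: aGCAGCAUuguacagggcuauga
miR-214-3p: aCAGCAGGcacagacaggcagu
miR-24-3p: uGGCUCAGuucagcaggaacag

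The let-7 guide strands are shown because they share 1 seed and were graded in their ratio.
let-7b-5p: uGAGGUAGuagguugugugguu
let-7c-5p: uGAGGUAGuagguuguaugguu
let-7a-5p: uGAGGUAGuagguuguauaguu
let-7f-5p: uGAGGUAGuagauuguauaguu

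The next set had the highest ratios or, for miR-21-5p, a high ratio at an abundance above 1% of the ODD reads.
miR-509-3-5p: uACUGCAGacguggcaaucaug
miR-510-5p: uACUCAGGagaguggcaaucac
miR-10a-5p: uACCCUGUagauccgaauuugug
miR-1250-5p: aCGGUGCUggauguggccuuu
miR-184: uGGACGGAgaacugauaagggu
miR-17-3p: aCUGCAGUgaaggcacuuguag
miR-21-5p: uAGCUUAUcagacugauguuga

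The last set was far lower with ODD probes or lost the most reads.
miR-449a: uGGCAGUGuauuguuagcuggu
miR-7-5p: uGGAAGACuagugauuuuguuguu
miR-93-5p: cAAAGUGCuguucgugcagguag
miR-509-3p: uGAUUGGUacgucuguggguag

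The hairpins of these miRNAs lie apart in the genome (RefSeq positions on GRCh38.p14, host genes from GENCODE). MIR15B (chr3:160404588-160404685, plus strand) and MIR16-2 (chr3:160404745-160404825) lie together in an intron of SMC4. MIR15A (chr13:50049119-50049201, minus strand) overlaps an exon of the non-coding DLEU2, and MIR16-1 (chr13:50048973-50049061) lies in an intron of DLEU2. Both MIR16-1 and MIR16-2 give miR-16-5p, so its reads cannot be assigned to either. MIR503 (chrX:134546328-134546398) and MIR424 (chrX:134546614-134546711) lie on the minus strand in an intron and an exon of MIR503HG. MIR214 (chr1:172138798-172138907, minus strand) overlaps an exon of the non-coding DNM3OS, and MIR107 (chr10:89592747-89592827, minus strand) lies in an intron of PANK1. MIR17 (chr13:91350605-91350688, plus strand) lies in an exon of MIR17HG, and MIR1250 (chr17:81133196-81133308, minus strand) in an intron of AATK. MIR10A (chr17:48579838-48579947, minus strand) overlaps an intron of HOXB3 and an exon of HOXB4, and MIR184 (chr15:79209788-79209871, plus strand) has no host gene on its strand.

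The ODD library was concentrated on few miRNAs and most members were lower there than in LacZ. A member is called higher or lower where its share of the library's miRNA reads, with 0.5 added to each count, differed at least 2-fold. By this rule 39 members were higher with ODD probes (13% of the 300), 211 were lower (70.3%) and 50 lay within 2-fold. The median log2 ratio of ODD over LacZ was -1.79, with a range from -7.22 to 7.48. Folds below are ratios of shares with a 95% exact conditional interval, which covers counting error only. All 250 calls had an interval that excluded 1, and for 30 of the higher and 167 of the lower members the whole interval lay past 2-fold.

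The ODD and LacZ libraries had nearly equal totals, 426450 and 425395 miRNA reads, so their read counts can be set side by side directly. The EVEN library held 98950 reads and the input 2987858. Levels across all 4 libraries are given in CPM, a count divided by its library total and put on a common scale. A count of 0 allows up to 7.04 CPM in ODD, 7.05 in LacZ and 30.3 in EVEN. The 39 higher members took 13.4% of LacZ reads and 49.4% of ODD reads. The 211 lower members went from 47.9% to 9.72%. It took 4 miRNAs to make up 50% of the ODD reads, against 10 in LacZ. Because shares sum to a fixed total, a larger share for a few abundant miRNAs lowers all others, and the number of calls in each direction moves with the scaling. With factors from the trimmed mean of M-values (TMM) the split was 68 higher to 99 lower. It was 66 to 102 with size factors from the median of ratios, and 61 to 141 when the totals left out the 10 most abundant miRNAs. These scalings raised the median of the members by 1.34, 1.33 and 0.91 on the log2 scale. Since each raises every ratio, all 39 higher members stayed at least 2-fold higher under all 4 scalings, while 99 of the 211 lower ones stayed at least 2-fold lower.

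**Figure D1:**
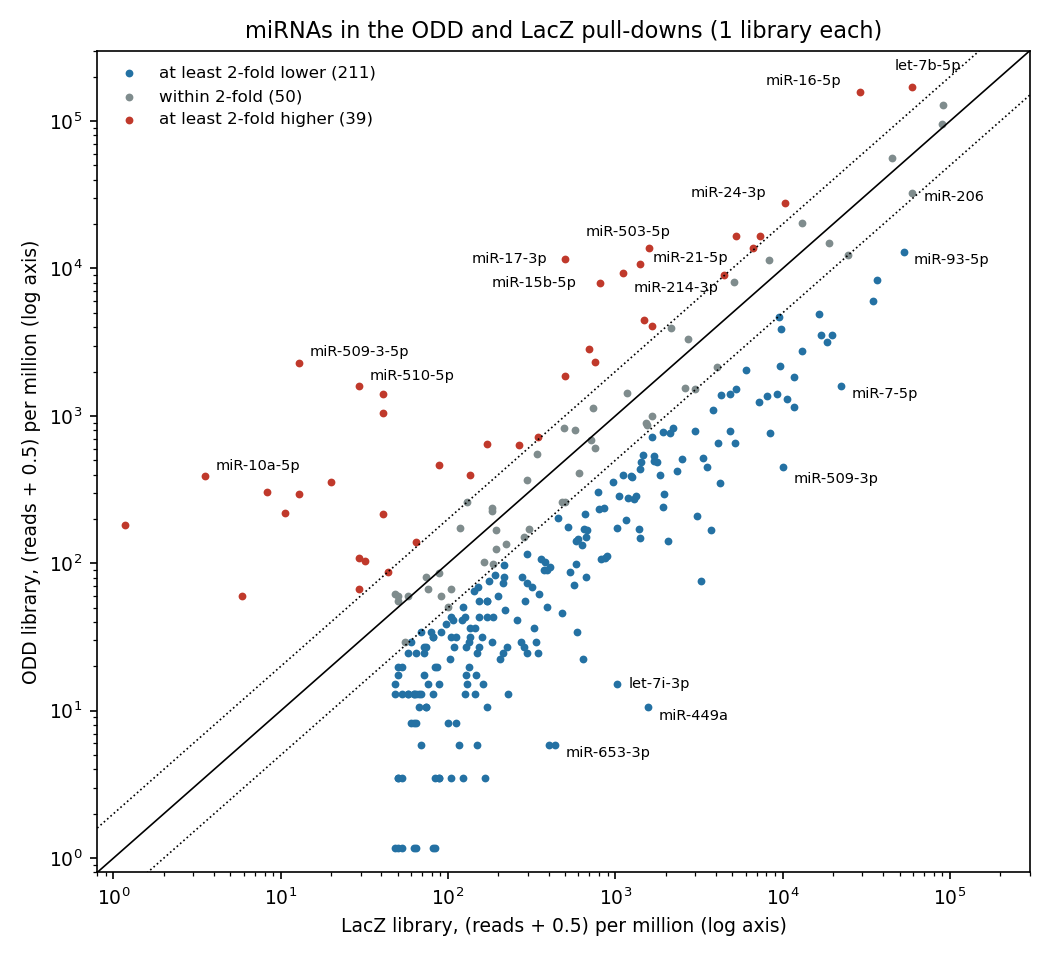
Normalised reads (CPM, with 0.5 added to each count) of the 300 members in the LacZ library (x, log axis) and the ODD library (y, log axis), 1 point a miRNA and 1 library an axis; the solid line marks equality and the dotted lines 2-fold. Most points lie below the lower dotted line (211), and the 39 above the upper one include rare miRNAs such as miR-10a-5p and the abundant miR-16-5p and let-7b-5p.

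The family of miR-15 and miR-16, guide strands known to repress cyclins and BCL2, made up a much larger part of the ODD than of the LacZ library. miR-16-5p had 67640 reads with ODD and 12285 with LacZ probes, or 15.9% and 2.89% of the libraries, and was 5.49-fold higher (5.39 to 5.60). Its gain of 12.97 percentage points was the largest of any member. miR-15b-5p had 3425 reads against 346 and was 9.87-fold higher (8.84 to 11.1). miR-15a-5p, with 274 reads against 72, was 3.80-fold higher (2.92 to 4.99). miR-424-5p, which has the same seed, had 234 reads against 145 and lay within 2-fold at 1.61-fold (1.30 to 1.99). Together the 4 members with the seed AGCAGCA took 3.02% of LacZ reads, 2.95% of input reads, 1.72% of EVEN reads and 16.8% of ODD reads.

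miR-503-5p, whose seed differs from that of miR-16-5p in its last base, was 8.70-fold higher (8.03 to 9.43), with 5860 reads against 672. In CPM it stood at 13741 in ODD, 1580 in LacZ, 566 in EVEN and 3574 in the input, so ODD was the highest of the 4 libraries and EVEN the lowest. miR-107 and miR-103a-3p, which lie in introns of pantothenate kinase genes, carry the same letters 1 base earlier. miR-107 had 168 reads against 57 and was 2.94-fold higher (2.17 to 4.04). miR-103a-3p had 7056 against 3127 and was 2.25-fold higher (2.16 to 2.35). These 2 differ at 1 base, so reads could be split between them by the counting, which the sources used here do not describe.

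miR-214-3p, a miRNA of mesenchymal cells, had 3987 reads with ODD and 473 with LacZ probes and was 8.41-fold higher (7.64 to 9.27). miR-24-3p had 11813 against 4367 and was 2.70-fold higher (2.61 to 2.79). Neither shares a seed with the miR-15/16 family, yet AGCAG occurs in each, at bases 3 to 7 in miR-214-3p and at bases 12 to 16 in miR-24-3p. Of the 970 different 5-letter words found in the 277 members with a RefSeq sequence, AGCAG was the one held by most higher members, and it was picked for description after the values were seen. It occurred in 10 members, of which 8 were higher, 1 was within 2-fold (miR-424-5p) and 1 was lower. That is 21.1% of the 38 higher members with a sequence, 0.518% of the 193 lower ones and 3.68% of all listed miRNAs with a sequence. The lower one, miR-191-5p, had 593 reads against 1810 and was 3.06-fold lower (2.79 to 3.36). Several of the 10 belong to 1 family, so they are not separate instances of the word. In exon 2 of HIPK3 the letters AGCAG occur 3 times and their reverse complement CUGCU 0 times, and where the probes lie on the exon was not used here.

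The EVEN library shares the LacZ control with this comparison, and the values can only be set side by side. Against LacZ, the log2 ratio of miR-16-5p was 2.46 with ODD and -0.82 with EVEN probes. That of miR-15b-5p was 3.30 and -0.21, that of miR-503-5p 3.12 and -1.47, and that of miR-214-3p 3.07 and -1.37. miR-24-3p had 1.43 and -0.94, and miR-103a-3p 1.17 and -0.51. Of these 10 miRNAs, miR-107 alone was above 0 in both, with 1.55 and 0.54.

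The let-7 guide strands, which hold back growth and are abundant in differentiated cells, all had a larger share in ODD than in LacZ, but by different amounts. The 9 members took 51.0% of ODD and 31.98% of LacZ reads. let-7b-5p had 72979 reads against 25067 and was 2.90-fold higher (2.86 to 2.95). let-7c-5p, which differs from it by 1 base, had 5870 against 2813 and was 2.08-fold higher (1.99 to 2.18). let-7a-5p, 2 bases from let-7b-5p, had 55202 against 38729 and lay within 2-fold at 1.42-fold (1.40 to 1.44). let-7f-5p, 3 bases from it, had 40874 against 37941, a ratio of 1.08 (1.06 to 1.09). Across all 9 members the ratio did not simply fall with distance from let-7b-5p. let-7g-5p (4 bases away) and let-7e-5p (3 bases) both had log2 ratios of 0.65, above let-7a-5p at 0.51. let-7d-5p, 4 bases away, had 0.47, above let-7f-5p at 0.10.

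By library totals, 2 of the 9 let-7 members were at least 2-fold higher, 0 were lower and the family median log2 ratio was 0.51. With each of the other scalings all 9 were at least 2-fold higher, since those scalings raise every ratio. The family's order from let-7b-5p (10 G or C bases) down to miR-98-5p and let-7f-5p (7 each) partly followed base content, with let-7g-5p (8 bases, log2 ratio 0.65) ahead of let-7d-5p and let-7i-5p (9 bases, 0.47 and 0.32). These miRNAs differ by few bases, and how reads that fit several of them were assigned is not stated. Among the 277 members with a RefSeq sequence, 17 lie 1 base from another member, of which 4 were higher and 10 lower. Of all 277, 38 were higher and 193 lower.

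The highest ratios belonged to miRNAs that were rare with LacZ probes. miR-509-3-5p, from an X-linked cluster best known from testis, had 981 reads with ODD and 5 with LacZ probes and was 196-fold higher (83.6 to 604). miR-510-5p, of the same cluster, had 682 reads against 12 and was 56.7-fold higher (32.2 to 110.3). In CPM, miR-509-3-5p stood at 2300 in ODD, 11.8 in LacZ, 20.2 in EVEN and 44.9 in the input, and miR-510-5p at 1599, 28.2, 0 and 108.1. Both were thus above the input in ODD alone. The 2 sequences share the 10 letters guggcaauca, which no other member with a RefSeq sequence holds.

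miR-10a-5p, encoded within the HOXB genes, had 166 reads against 1, which gives 166-fold with a wide interval (29.3 to 6579). miR-1250-5p, in an intron of AATK, had 597 reads against 17 and was 35.0-fold higher (21.7 to 60.5). miR-184, known from the lens and cornea, had 445 against 17 and was 26.1-fold higher (16.1 to 45.2). miR-550a-3p had 77 ODD reads (180.6 CPM), 67 input reads (22.4 CPM) and 0 LacZ reads, and was at least 25.6-fold above a floor of 3 counts in the LacZ library. miR-6735-5p, miR-1237-3p, miR-493-5p, miR-3177-3p and miR-331-5p complete the 12 highest, with 2 to 8 reads in LacZ and at least 25 in ODD. Of these 12 only miR-17-3p reached 20 reads in LacZ. Among the 2987858 input reads, miR-1250-5p had 165, miR-331-5p 39, miR-493-5p 27, miR-184 18 and miR-10a-5p 16. There miR-3177-3p had 4 reads, miR-6735-5p 3 and miR-1237-3p 1, so these were nearly absent from the lysate library. The 16 members that had fewer than 20 LacZ reads were all higher; they entered through their ODD reads, so the choice of members fixes that direction.

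Against the lysate the same ODD counts enter again, so the next values describe the chosen members and add no support. Of the 39 higher members, 37 were at least 2-fold above the input in ODD and 0 at least 2-fold below it, with a median log2 ratio of 3.01. Of the 211 lower members 198 could be compared, and 4 were at least 2-fold above and 162 at least 2-fold below the input. In LacZ, 33 of the 39 could be compared with the input by the same read minimum, and 10 were at least 2-fold above and 7 at least 2-fold below it. miR-21-5p, found at high levels in many cancers, made up 1.08% of ODD reads and 0.141% of LacZ reads. In CPM miR-21-5p stood at 10791 in ODD, 1408 in LacZ, 24356 in EVEN and 2184 in the input. It was 7.66-fold higher with ODD than with LacZ probes (7.04 to 8.36), and its log2 ratio was 2.94 for ODD and 4.11 for EVEN against the shared LacZ library.

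Several clusters held both higher and lower members, in shares that for the larger clusters lay near those of all 300 members (13% higher and 70.3% lower), so the counts describe which arms moved and show nothing particular to a cluster. MIR17HG, the host of the growth-promoting miR-17-92 cluster on chromosome 13, gave 11 members, of which 2 were higher and 8 lower. Their median log2 ratio was -2.24. The higher ones were miR-17-3p, with 4984 reads against 213 (23.3-fold, 20.4 to 26.9), and miR-92a-1-5p, with 28 against 12 (2.33-fold, 1.15 to 5.02). miR-92a-1-5p reached the read minimum in ODD alone, and the lower miR-20a-3p and miR-19b-1-5p in LacZ alone, so the choice of members fixed those directions. The guide strand miR-17-5p had 116 reads against 549 and was 4.74-fold lower (3.88 to 5.85). miR-20a-5p had 1501 against 8422 and was 5.63-fold lower (5.32 to 5.95). In CPM, miR-17-3p stood at 11687 in ODD, 501 in LacZ, 162 in EVEN and 935 in the input. Under the other scalings the same list had 2 higher and 5 to 6 lower.

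In the miR-506 to miR-514 cluster on chromosome X, 10 miRNAs were members, 2 higher (miR-509-3-5p and miR-510-5p) and 7 lower. Both higher ones reached the read minimum in ODD alone, and miR-507, miR-514a-5p and miR-514b-5p in LacZ alone. The choice of members fixed those directions. miR-509-3p, which the hairpin of miR-509-3-5p also yields, had 192 reads with ODD and 4297 with LacZ probes and was 22.4-fold lower (19.4 to 26.1). miR-514a-3p had 60 against 879 and was 14.7-fold lower (11.3 to 19.4). In the input both were near or above the ODD level, at 368 and 2387 CPM against 450 and 141 in ODD. In LacZ and EVEN miR-509-3p stood at 10101 and 16402 CPM. Its LacZ level was thus far above the input (log2 ratio 4.78), while its ODD level was near the input (0.295). The cluster kept 2 higher and 5 to 6 lower members under the other scalings.

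The X-linked group of miR-424, miR-503, miR-450 and miR-542 also held both kinds. miR-503-5p was higher and miR-424-5p within 2-fold, as above, while all 5 members from miR-450 and miR-542 were lower under all 4 scalings, with a median log2 ratio of -2.98 by totals. miR-450a-5p, miR-450a-1-3p and miR-542-5p reached the read minimum in LacZ alone, so the choice of members fixed their direction. In the list of miR-199 and miR-214, miR-214-3p was higher and miR-199a-5p lower, the latter with 277 reads against 2205 (7.98-fold, 7.04 to 9.07). miR-24-3p was the only one of 6 members from the miR-23/24/27 clusters that was higher. The other 5 were at least 2-fold lower by totals, among them miR-23b-3p with 870 reads against 2554 (2.94-fold, 2.72 to 3.18) and miR-27b-3p with 528 against 3056 (5.80-fold, 5.29 to 6.38). With TMM factors 2 of these 5 stayed at least 2-fold lower.

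**Figure D2:**
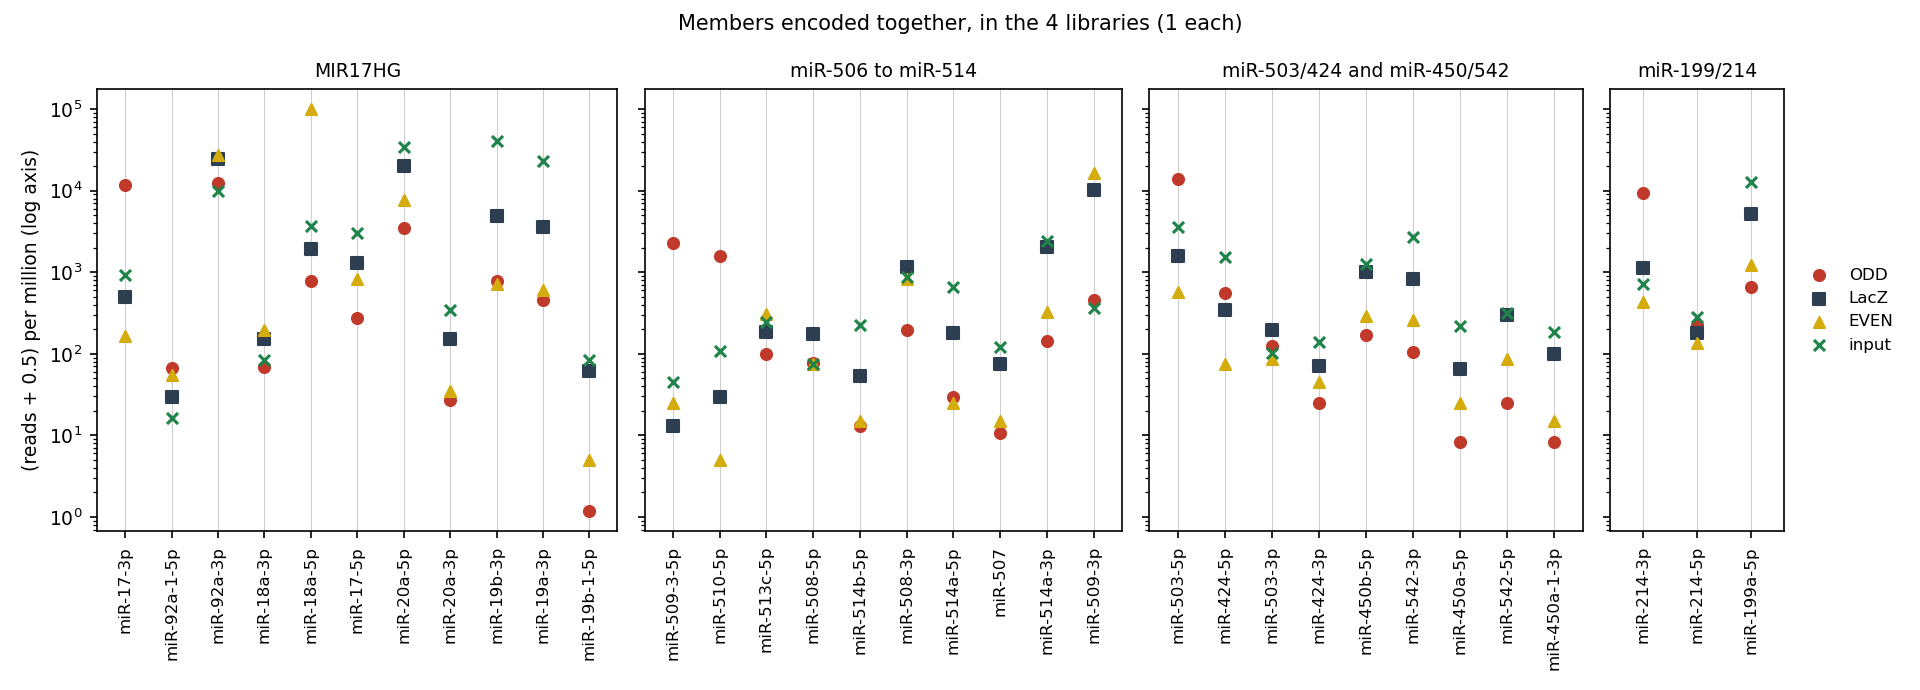
Normalised reads (CPM, with 0.5 added to each count, log axis) of members encoded together, in the ODD, LacZ, EVEN and input libraries, 1 library each. ODD points lie far above LacZ for miR-17-3p, miR-509-3-5p, miR-510-5p, miR-503-5p and miR-214-3p, and far below it for most of their cluster partners, such as miR-509-3p and miR-542-5p. miR-509-3-5p and miR-510-5p reached the read minimum in ODD alone and miR-542-5p in LacZ alone, so the choice of members fixed their directions.

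Both arms were members for 62 hairpins. Both arms were lower in 35 of them, both higher in 0, and in 6 the arms were at least 2-fold apart from LacZ in opposite directions. Of all 300 members, 70.3% were lower and 13% higher. For miR-15b the 5p arm made up 97.4% of the arm reads in ODD and 55.3% in LacZ, with the passenger strand miR-15b-3p at 92 reads against 280. For miR-17 the 5p arm fell from 72.1% in LacZ to 2.28% in ODD. For miR-409, of the imprinted 14q32 region, it went from 72.4% to 2.46%, as miR-409-3p had 198 reads against 37 and miR-409-5p 5 against 97. For miR-331 the 5p arm went from 1.19% to 39.7%, from only 2 and 25 reads. miR-877 and miR-3074 complete the 6, with 5p arms at 92.8% or more in both libraries. miR-331-5p reached the read minimum in ODD alone, and miR-409-5p, miR-877-3p and miR-3074-3p in LacZ alone. The choice of members fixed the directions of these arms. With TMM or median-of-ratios factors 2 of the 6, miR-409 and miR-877, remained opposite by the 2-fold rule and let-7i joined them. The lower arms of miR-15b, miR-17 and miR-331 came inside 2-fold there, at -0.26, -0.90 and -0.77 with TMM factors, and miR-3074-3p turned from a log2 ratio of -1.03 to 0.31 and 0.29. The arm with more LacZ reads had the larger ratio in 35 of the 62 hairpins. The median log2 ratio was -1.70 over the arms with more LacZ reads and -1.58 over the other arms. LacZ reads are also the denominator of the ratio, so this choice of arm tends to lower its ratio.

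Among members lower with ODD probes, miR-449a, a miRNA of multiciliated cells, was the lowest by ratio, with 4 reads against 670 (168-fold lower, 65.3 to 618). In CPM it stood at 1575 in LacZ and 155 in the input, so the LacZ library was far above the input and ODD, at 4 reads, below it. let-7i-3p, a passenger strand, had 6 reads against 432 and was 72.2-fold lower (32.9 to 198), while its guide let-7i-5p had a log2 ratio of 0.32. miR-378a-5p, encoded within the metabolic regulator PPARGC1B, had 32 against 1382 and was 43.3-fold lower (30.5 to 63.5). miR-653-3p had 2 against 186, miR-6820-5p 2 against 171 and miR-132-5p 1 against 70. Of the 12 lowest members 6 were at 0 reads in ODD, with 21 to 35 in LacZ, and their ranks come from the 0.5 added to each count.

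The largest losses of reads were in abundant guide strands. miR-93-5p, a growth-promoting relative of miR-17-5p, had 5543 reads against 22505 and its share went from 5.29% to 1.30% (4.07-fold lower, 3.95 to 4.19). miR-125b-5p had 3557 reads against 15633 (4.41-fold lower, 4.25 to 4.57). miR-125a-5p had 2549 against 14701 (5.78-fold lower, 5.54 to 6.03). The share of miR-206, described further below, went from 5.90% to 3.27%, a larger loss of share than that of miR-7-5p. miR-7-5p, known for its circular RNA partner CDR1as, had 681 against 9503 and was 13.99-fold lower (12.9 to 15.1). miR-93-5p and miR-125b-5p dropped inside 2-fold with TMM factors, at log2 ratios of -0.68 and -0.80, whereas miR-125a-5p (-1.19) and miR-7-5p (-2.46) did not.

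Members with a shared seed were lower about as often as members in general. Among the 277 members with a RefSeq sequence, a seed was shared by at least 2 members in 27 cases, covering 71 members. Of these 71, 46 (64.8%) were at least 2-fold lower by totals, beside 193 of the 277 and 70.3% of all 300. Another 9 (12.7%) were higher, beside 38 of the 277 and 13% of all 300. The 23 members without a sequence could not enter these groups, while the miR-29 and miR-30 counts below go by name. In 17 of these groups every member was lower. The 4 members with the seed AAAGUGC, miR-17-5p, miR-20a-5p, miR-93-5p and miR-106b-5p, went from 7.41% of LacZ to 1.68% of ODD reads. The miR-125 seed CCCUGAG went from 7.13% to 1.43%. The miR-29 family, which represses collagen and other matrix genes, had 3 of 3 members lower with a median log2 ratio of -2.995, and the miR-30 family 7 of 7 with a median of -2.50. With TMM factors these counts became 2 of 3 and 4 of 7. The group of miR-34a-5p and miR-449a had the lowest median, -5.57, with 1 and 4 reads in ODD.

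**Figure D3:**
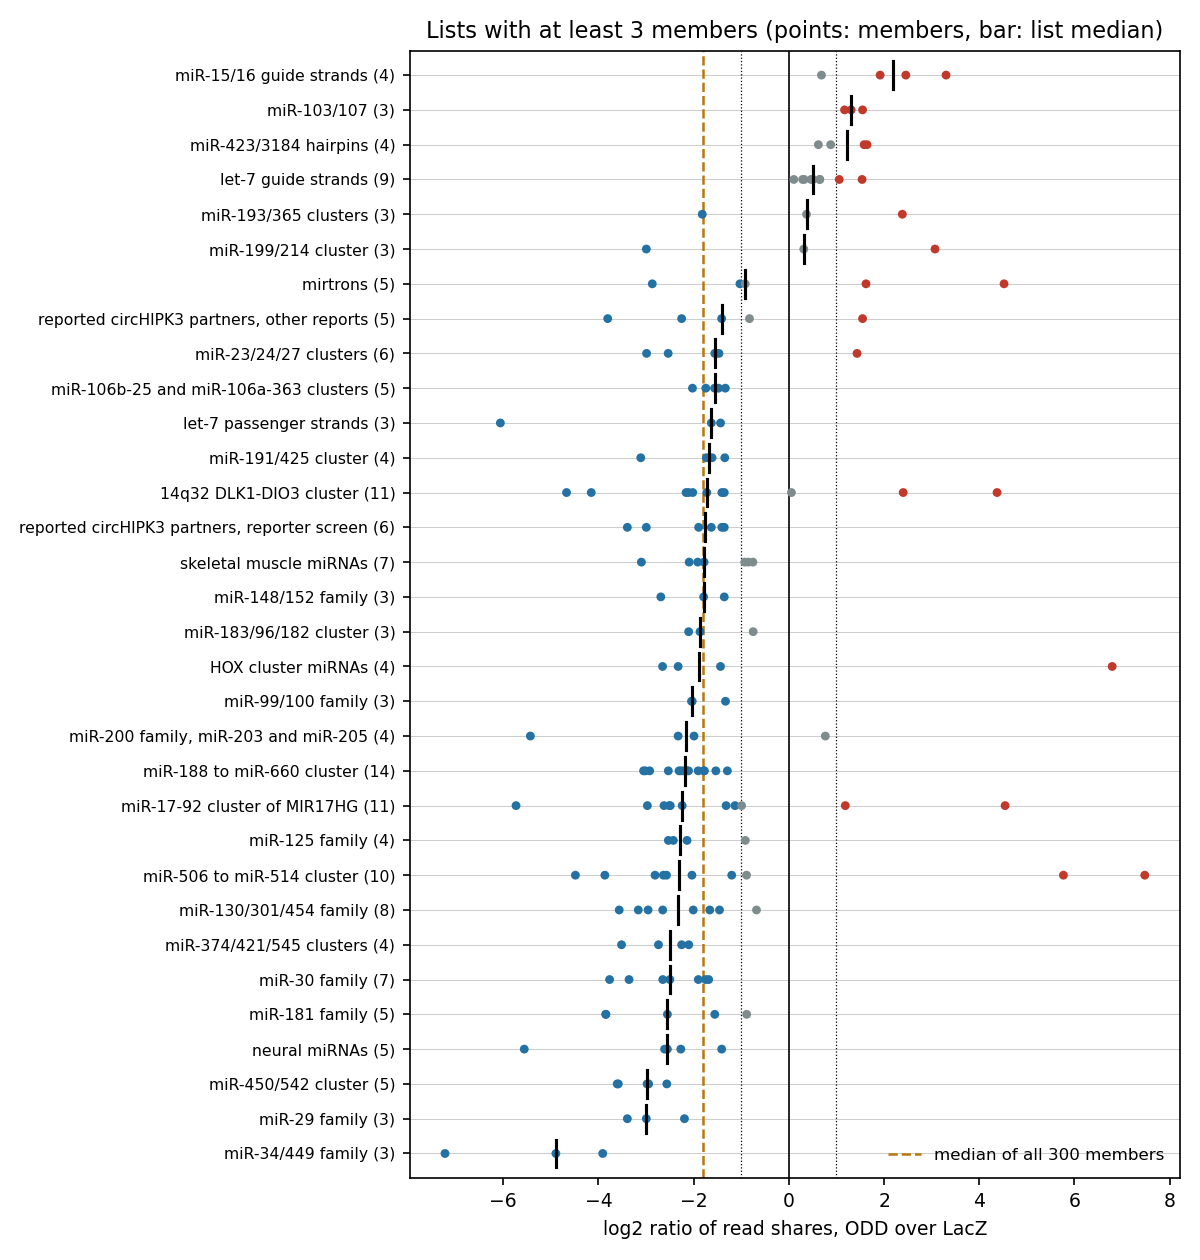
Log2 ratio of read shares, ODD over LacZ, for lists of miRNA families and clusters with at least 3 members (number in brackets), sorted by their median. Points are single miRNAs, coloured red for at least 2-fold higher, grey within 2-fold and blue lower, black bars are list medians, dotted lines mark 2-fold and the dashed line the median of the 300 members (-1.79). The lists of miR-15 and miR-16, miR-103 and miR-107, miR-423 and miR-3184, and let-7 have all their points above 0, and most other medians lie between -1 and -3, where 18 members called lower by totals would rise above 0 under at least 1 other scaling.

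The muscle miRNAs that mark RD cells were present in the lysate and were not higher with ODD probes. miR-206, the miRNA most tied to skeletal muscle, stood at 42097 CPM in the input, 59009 in LacZ and 32745 in ODD. It had 13964 reads in ODD against 25102 in LacZ and was 1.80-fold lower in ODD (1.77 to 1.84). That lies within 2-fold by totals, and the log2 ratio of -0.85 turned to 0.50 with TMM factors. miR-1-3p, which shares its seed with miR-206, had 598 reads against 2050 (3.44-fold lower, 3.14 to 3.77). miR-133a-3p had 338 against 1272 (3.77-fold lower, 3.34 to 4.27). Of 7 muscle members 0 were higher and 4 lower, beside 13% higher and 70.3% lower of all 300 members. The median log2 ratio of the muscle members was -1.78 beside -1.79 for all members, and 1 of the 7 was lower with TMM factors. Markers of other cell types, miR-122-5p for liver, miR-124-3p for neurons, and miR-223-3p, miR-142-3p and miR-451a for blood, had at most 5 reads in ODD and 16 in LacZ, and none was a member. Some epithelial miRNAs were members although nearly absent from the input. miR-205-5p had 355 reads in ODD, 208 in LacZ and 4 in the input. miR-203a-3p had 15, 61 and 2, and miR-203b-5p 5, 27 and 0. By contrast, miR-200a-3p had 0, 21 and 168. The source of reads that the input lacked was not tested.

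Other families mostly followed the members as a whole, of which 13% were higher and 70.3% lower by totals. All 14 members of the X-linked cluster from miR-188 to miR-660 were lower, with a median of -2.18, and 4 of them with TMM factors. Of 11 members from the imprinted 14q32 region 2 were higher (miR-493-5p and miR-409-3p) and 8 lower, and the median was -1.72. miR-493-5p reached the read minimum in ODD alone and all 8 lower ones in LacZ alone, so the choice of members fixed those directions. The family of miR-130, miR-301 and miR-454 had 0 of 8 higher and 7 lower, and 5 neural miRNAs were all lower, with a median of -2.55. With TMM factors 4 of these 8 and 3 of these 5 were lower. The 4 arms from the overlapping hairpins of miR-423 and miR-3184 all had ratios above 0. miR-423-5p had 7031 reads against 2247 and was 3.12-fold higher (2.98 to 3.27), and miR-3184-3p, on the opposite strand, had 1899 against 633. The reads of miR-423-5p were 370% of those of miR-3184-3p in ODD and 355% in LacZ, and whether the counting used strand is not stated. The same limit applies to miR-103a-3p with miR-103b and to miR-24-3p with miR-3074-5p, which overlap on opposite strands and were all higher.

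Most of the measured miRNAs named elsewhere as circHIPK3 partners were lower by totals, as were 70.3% of all 300 members. Of 9 from an earlier reporter screen 6 were members, and all 6 were lower, with a median log2 ratio of -1.76 beside -1.79 for all members. miR-29b-3p had 11 reads against 120, miR-29a-3p 30 against 242 and miR-338-3p 15 against 57. miR-584-5p had 23 against 72, miR-379-5p 13 against 34 and miR-654-3p 8 against 22. miR-29b-3p, miR-338-3p, miR-379-5p and miR-654-3p reached the read minimum in LacZ alone, so the choice of members fixed their direction. With TMM factors only the 2 miR-29 members remained at least 2-fold lower, and the other 4 had log2 ratios from -0.55 to -0.01. miR-152-3p, from the same screen, had 3 reads against 19 and fell just outside the read minimum. Of 5 members from other reports, miR-107 was higher, miR-149-5p lay within 2-fold (371 against 657) and 3 were lower, namely miR-7-5p, miR-421 (56 against 268) and miR-190b-5p (14 against 38). With TMM factors miR-7-5p (-2.46) stayed at least 2-fold lower, while miR-421 (-0.91) and miR-190b-5p (-0.07) came inside 2-fold.

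Seed matches in exon 2 were counted on its 1099 bases (chr11:33286413-33287511, plus strand, GRCh38), as a description of letters and not of binding. A match to all 7 seed bases was found for 3 of the 38 higher members with a sequence (7.89%), 0 of 46 within 2-fold and 20 of 193 lower ones (10.4%). The share was 8.3% over all 277 members and 7.39% over all 2367 listed miRNAs with a sequence. Exact binomial intervals were 1.66% to 21.4% for the higher and 6.45% to 15.6% for the lower members. These intervals treat members as independent, but members share both libraries and many share a seed. The intervals are thus a description, and a difference between the groups was not tested. With 6 seed bases a match was found for 8 higher (21.1%) and 54 lower members (28%), beside 25.3% of all members and 25.2% of all listed.

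The 3 matched sites of higher members are shown because they are what a seed search of the exon offers, each written 5′ to 3′ as RNA with the 7 bases that pair with the seed in capitals.
site of miR-10a-5p, chr11:33287412-33287434: cuguucggcagccuuACAGGGUu
site of miR-1250-5p, chr11:33287196-33287218: cuuaugaaugcuuucAGCACCGu
site of miR-17-3p, chr11:33286661-33286683: guuguuuugaaaaacACUGCAGg
The longest unbroken run of letters that could pair with the exon was 8 bases for miR-10a-5p, 9 for miR-1250-5p and 10 for miR-17-3p, the last lying elsewhere in the exon. Over the groups the median longest run was 7 bases in higher and in lower members. None of the 10 miRNAs with AGCAG was among the 3.

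Base content went with the ratio weakly. The 8 members with under 30% G or C were all lower, with a median log2 ratio of -3.26. From 30% to 40% 2 of 47 were higher and 39 lower, and from 50% to 60% 17 of 83 were higher and 52 lower. At 60% and above 8 of 62 were higher and 37 lower, with a median of -1.28. Of all 277 members with a sequence, 38 were higher and 193 lower. Across the 277 members, which share both libraries and are not independent replicates, Spearman's rho between the percentage of G or C and the ratio was 0.28 and Pearson's r 0.18. The same measures were 0.33 and 0.25 for EVEN over LacZ (262 miRNAs) and 0.50 and 0.45 for LacZ over input (272 miRNAs). The part of base content in the ODD ratios was not tested.

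**Figure D4:**
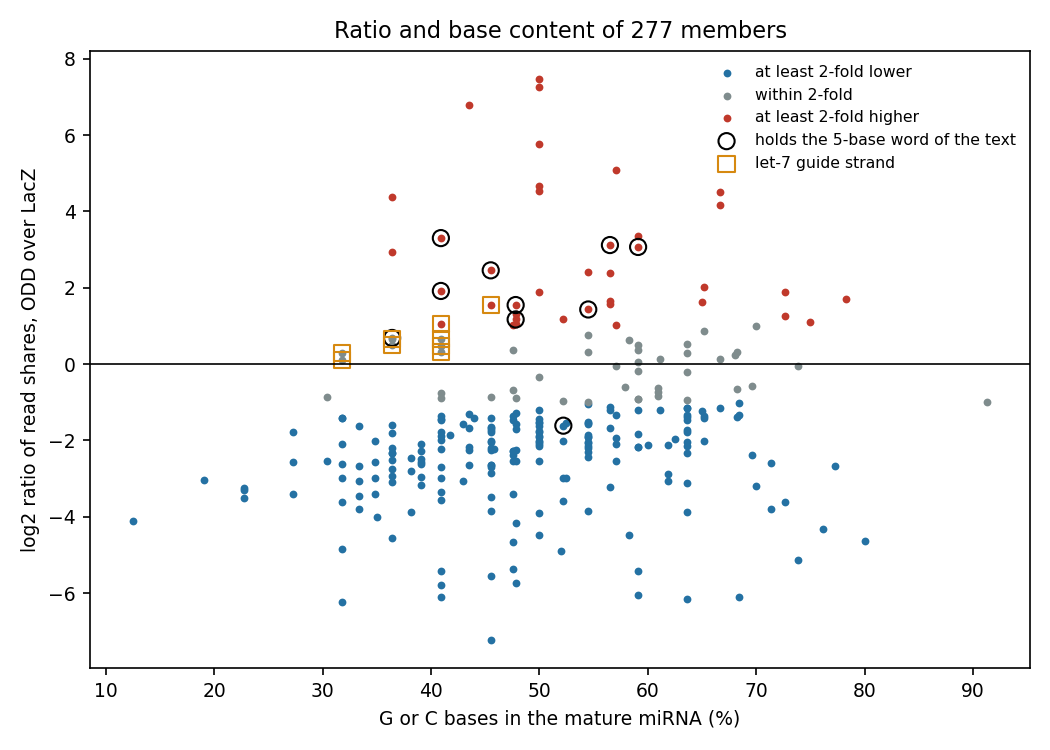
Percentage of G or C bases in the mature miRNA (x) and log2 ratio of read shares, ODD over LacZ (y), for the 277 members with a sequence; red points were at least 2-fold higher, blue lower and grey within 2-fold, circles mark the 10 members that hold AGCAG and squares the 9 let-7 guide strands. The circled points lie above 0 except miR-191-5p, and their base content runs from 36.4% to 59.1%.

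The balance of calls is also given by abundance, as a description. Among the 10 members with the highest mean share 3 were higher and 3 lower and the median log2 ratio was 0.21, and among the 100 highest 20 were higher and 60 lower. All 300 members together had 39 higher and 211 lower. Of the 127 members with 20 to 99 LacZ reads 4 were higher and 103 lower, and of the 56 with at least 1000 LacZ reads 7 were higher and 36 lower. The LacZ count sets both these bins and the ratio, and 105 members reached the read minimum in LacZ alone, so the choice of members fixes that they had fewer reads in ODD. Low counts limit single values there: just inside the read minimum stood miR-30c-1-3p (5 reads in ODD, 20 in LacZ), miR-3605-3p (6 and 20) and miR-625-5p (0 and 20). Just outside it stood miR-152-3p (3 and 19), miR-16-2-3p (1 and 18) and miR-509-5p (18 and 0).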

How the data were processed

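Small RNA libraries of the input and 3 pull-downs, 1 each, were made with the QIAseq miRNA kit, per the labels' protocols. The authors deposited whole-number read counts per mature miRNA, and CPM, which equal each deposited count divided by its library total and rescaled to within 1.46e-11. The submitters' processing notes name GRCh38. For the aligner, strand use, multi-mapping and the use of molecular identifiers, nothing is given in the sources used here. If identifiers were not collapsed, counting intervals are too narrow.

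Log2 ratios used (count + 0.5) over the library total. Members needed 20 reads in ODD or LacZ, and calls 2-fold. Folds are ratios of shares with 95% exact conditional Clopper-Pearson intervals, and a library at 0 was set to a floor of 3 counts. Groups were taken from the sample titles. With 1 library per group no test was made. Members and miRNA lists were chosen with earlier results of these data known, and the partner lists were recalled from general knowledge. Named miRNAs are the 12 highest and 12 lowest, the 10 most abundant of each library, the 8 largest gains and losses of share, 4 per list, the arms of opposite hairpins, 3 on each side of the read minimum and all measured partners. The miRNAs whose sequences are shown, AGCAG and the clusters compared were picked after values were seen. RefSeq held a sequence for 277 of the 300 members. Exon 2 and host genes came from GENCODE release 29, on GRCh38. TMM factors came from edgeR 4.0.16 and size factors from DESeq2 1.42.0, in R 4.3.3. The other steps ran in Python 3.11.15 (scipy 1.17.1, numpy 2.4.6, pandas 2.3.3, matplotlib 3.10.9) and were checked on simulated counts.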

Additional observations from a re-analysis of the deposited data

Results flagged for a closer look

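For 12 members the ODD and EVEN pull-downs lay at least 2-fold from the shared LacZ library in opposite directions, which is what brought them here. The difference was not tested, since each probe set has 1 library. The values are log2 ratios of ODD over EVEN. Higher with ODD and lower with EVEN were miR-17-3p (6.13), miR-503-5p (4.59), miR-214-3p (4.44), miR-15a-5p (3.53, from 5 EVEN reads) and miR-1247-5p (3.40). Lower with ODD and higher with EVEN were miR-18a-5p (-7.02), miR-188-3p (-5.23), miR-421 (-3.94), miR-133b (-3.54), miR-935 (-3.41, from only 7 ODD and 18 EVEN reads, both under the read minimum), miR-7706 (-3.34) and miR-133a-3p (-3.03). miR-17-3p and miR-18a-5p come from the same host, MIR17HG. miR-18a-5p had 329 of 426450 reads in ODD, 819 of 425395 in LacZ, 9897 of 98950 in EVEN and 10907 of 2987858 in the input. Against LacZ its log2 ratio was -1.32 with ODD and 5.70 with EVEN probes. miR-503-5p, miR-214-3p and miR-15a-5p hold AGCAG, and miR-133a-3p and miR-133b share their seed.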

How the results depend on the processing

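With 1 library per group no replicate could be left out. No paired analysis was possible because each group has 1 library. The 39 higher and 211 lower members became 68 and 99 by TMM, 66 and 102 by the median of ratios, and 61 and 141 when totals left out the 10 most abundant miRNAs. They became 155 and 517 of 843 at a minimum of 1 read, 30 and 108 of 170 at a minimum of 100 reads, and 20 and 137 at a 4-fold threshold. With 5 added to each count they were 36 and 208, and with CPM plus 1 or an interval that excludes 1 they were 39 and 211. The members' median log2 ratio of -1.79 became -0.45, -0.47 and -0.88 under the 3 scalings, -1.59 at a minimum of 1 read and -1.64 with 5 added. The higher share of all calls was 15.6% by totals, 40.7% with TMM factors, 39.3% with size factors and 30.2% without the 10 most abundant. The 6 hairpins with opposite arms became 3 with TMM and 3 with size factors (2 of the 6 and let-7i in each), 3 at 4-fold, 28 at 1 read and 2 at 100 reads. Higher members with a seed match in exon 2, 3 by totals, became 8 at 1 read and 8 with 6 seed bases. Lower ones, 20 by totals, became 9 with TMM, 9 with size factors, 11 without the 10 most abundant, 51 at 1 read, 9 at 100 reads, 11 at 4-fold and 54 with 6 seed bases. Of the 137 named miRNAs 11 changed sign under at least 1 other scaling, 9 of them within 2-fold by totals (miR-206 among them). The other 2, called lower by totals, were miR-3074-3p (0.31 with TMM, 0.29 with size factors) and miR-99b-5p (0.013 with TMM). At 100 reads the medians of 3 lists turned positive because few members remained. The 14q32 list kept only miR-409-3p (2.40), and the list of miR-200, miR-203 and miR-205 kept only miR-205-5p (0.77). The HOX list kept miR-10a-5p (6.79) and miR-196a-5p (-1.44), with a median of 2.68. These values describe the remaining miRNAs and not whole lists. Members at the read minimum rest on about 20 reads, so their folds have wide intervals, and the shallow EVEN library limits every value set beside it.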
